A study of Mus musculus with 8 samples.

Results

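The pyruvate dehydrogenase complex, its kinases and its phosphatases were followed through RNA sequencing of activated muscle stem cells (ASCs) from mice with and without Mitofusin 2. The 10 genes were taken by symbol, and all 10 were found among the 18877 genes of the expression table. They are the kinases Pdk1, Pdk2, Pdk3 and Pdk4, the phosphatases Pdp1 and Pdp2, and the subunit genes Pdha1, Pdhb, Dlat and Pdhx. Both groups carried tamoxifen-inducible Cre under the Pax7 promoter, which is active in muscle stem cells, and a Cre-dependent Dendra2 protein placed in the mitochondria. In the mfn2-/- group tamoxifen also removed Mfn2 from the muscle stem cells and their progeny, and cells in which Cre did not act would keep it. The ages of the mice were not given in the sources used here. Mice of both groups received tamoxifen at 75 mg/kg once daily for 5 days, the tibialis anterior was injured 2 days after the last dose with 50 μL of 1.2% barium chloride, and CD34-, Dendra2+ and DAPI- cells were sorted 2 days after injury. There were 4 wild-type and 4 mfn2-/- libraries.

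The pyruvate dehydrogenase complex sits in the mitochondrial matrix and turns pyruvate, the end product of glycolysis, into acetyl-CoA for the citric acid cycle. The kinases place phosphates on the alpha subunit of its first enzyme and thereby switch the complex off, and the phosphatases remove them and switch it on again. In skeletal muscle Pdk4 is the kinase best known for its induction in fasting, when it spares glucose and favors fatty acid oxidation.

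The wild-type libraries held 1880464 to 7508215 reads in genes and the mfn2-/- libraries 2269009 to 6199866. Values below are normalized reads, which are read counts that the authors scaled between libraries, so 1 read was worth from 0.534 to 2.27 normalized reads. Mfn2, the deleted gene, was at 243, 245, 202 and 228 normalized reads in wild-type replicates 1 to 4 and at 104, 118, 172 and 110 in the mfn2-/- replicates. The groups did not overlap (log2 change −0.88, adjusted p = 0.0848 in limma over all genes; two-sided exact permutation p = 0.0286, the smallest that 4 against 4 allows, adjusted p = 0.0571 over 10 library measures). Transcript remained in every mfn2-/- library, and the gene totals do not show which exons it came from. Of 10 muscle stem cell markers 4 were higher in mfn2-/- cells in limma, edgeR and DESeq2, and Itga7 alone was lower, in DESeq2 only. Pax7, the defining marker, averaged 662 normalized reads in the wild-type group and 715 in the other, so both groups held it. The summed marker transcripts of fibroadipogenic cells, the connective tissue cells of muscle, made up 5.11 to 6.89% of wild-type reads and 0.156 to 0.26% of mfn2-/- reads, with 13 of 15 markers lower, and 10 of 10 tendon cell markers were lower as well. Myofiber markers went the other way (0.0417 to 0.0908% in wild-type against 0.106 to 0.131%, 3 of 14 tested higher), as did the summed muscle stem cell markers (0.233 to 0.341% against 0.664 to 1.01%). The largest means in the stem cell sum were those of Sdc4 (4271 in wild-type and 17473 in mfn2-/- cells) and Des (2156 and 7969), both among its 4 higher markers. The other 6 markers, Pax7 and Myf5 (207 and 219) among them, did not pass in limma. The summed endothelial, macrophage and adipocyte markers overlapped between the groups and reached at most 0.0527% of reads in any library. No marker of the fibroadipogenic, tendon, myofiber and muscle stem cell lists was at 0 in all libraries of a group. The part of these marker transcripts in the results that follow was not tested, and in bulk samples fewer cells of a type and less RNA per cell cannot be told apart. Reads of Y-linked genes (807 to 2336) were found in wild-type libraries 3 and 4 and in the first 2 of the mfn2-/- group, and none in the other 4 libraries. Those wild-type libraries also held 152 and 272 reads of Xist, which is made from the inactive X chromosome, against 1365 to 7747 in the libraries without Y-linked reads. Values are given within each kind of library where a result touches it.

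The change in kinase transcripts was almost wholly a rise of Pdk4, the one member that passed the test, while Pdk2, the next most abundant kinase in wild-type cells, stood lower in every mfn2-/- library. The promoters of these genes are shown first, because they are the kinases whose groups did not overlap, Pdk4 being higher and Pdk2 lower in every mfn2-/- library. Each sequence runs from 250 bases before to 50 bases after the start of the RefSeq gene on GRCm38.p6, read 5′ to 3′ on the gene's own strand. Pdk4 lies on the minus strand at chr6:5496229-5496528 and Pdk2 on the minus strand at chr11:95041322-95041621. Capitals mark matches to motifs searched on both strands.

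Pdk4: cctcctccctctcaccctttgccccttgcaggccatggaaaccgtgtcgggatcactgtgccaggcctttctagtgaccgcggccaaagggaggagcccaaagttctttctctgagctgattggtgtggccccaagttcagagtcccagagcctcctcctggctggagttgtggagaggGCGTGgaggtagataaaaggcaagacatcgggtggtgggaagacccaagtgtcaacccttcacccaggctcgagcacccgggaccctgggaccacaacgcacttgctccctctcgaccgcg
Pdk2: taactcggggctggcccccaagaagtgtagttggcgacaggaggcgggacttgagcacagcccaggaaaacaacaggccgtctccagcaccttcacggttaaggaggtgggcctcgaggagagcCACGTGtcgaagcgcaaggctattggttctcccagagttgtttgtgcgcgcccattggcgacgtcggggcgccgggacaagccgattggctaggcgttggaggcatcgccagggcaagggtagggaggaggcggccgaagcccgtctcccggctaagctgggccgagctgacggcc

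The motifs searched were ACGTG and GCGTG, cores of hypoxia response elements, CAGCTG, an E-box of the kind bound by myogenic factors, AGGTCA, a nuclear receptor site, and TGTTTAC, a forkhead site. The Pdk4 window held GCGTG once, from base −71 before the start, a motif present in 32.4% of 32851 promoter windows of this length. The Pdk2 window held CACGTG, in which ACGTG is read on both strands as matches at −126 and −125 that overlap in 4 bases, and ACGTG was present in 19.6% of windows. Neither window held CAGCTG or AGGTCA, each found in 16.3% of windows, nor TGTTTAC, found in 3.65%. CAGCTG was the only E-box form searched, so the CACGTG of the Pdk2 window was counted for its ACGTG alone. GC content was 60.7% for Pdk4 and 64.7% for Pdk2, against a median of 52.7% over all windows. Of the 10 genes 9 were matched to a promoter, all but Pdp1. These matches describe the letters in the windows and say nothing on the binding of any factor.

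Pdk4 transcript was at 1358, 1302, 799 and 745 normalized reads in wild-type replicates 1 to 4 and at 3192, 3368, 2962 and 2527 in mfn2-/- replicates 1 to 4. Every mfn2-/- library lay above every wild-type library, and the group means were 1051 ± 324 and 3012 ± 364 (SD, n = 4 each). Pdk4 rose 2.87-fold by these means, or by 1.56 on the log2(normalized reads + 1) scale (SE 0.22, 95% interval 1.08 to 2.05, adjusted p = 0.000715 in limma). Across all 11754 genes tested 10.4% passed the same threshold, 3.99% as higher and 6.36% as lower in mfn2-/- cells. By the size of its rise Pdk4 ranked 100 among the 469 genes that were higher. The rise passed in all 24 alternative settings, with log2 changes of 1.42 to 1.94.

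**Figure D1:**
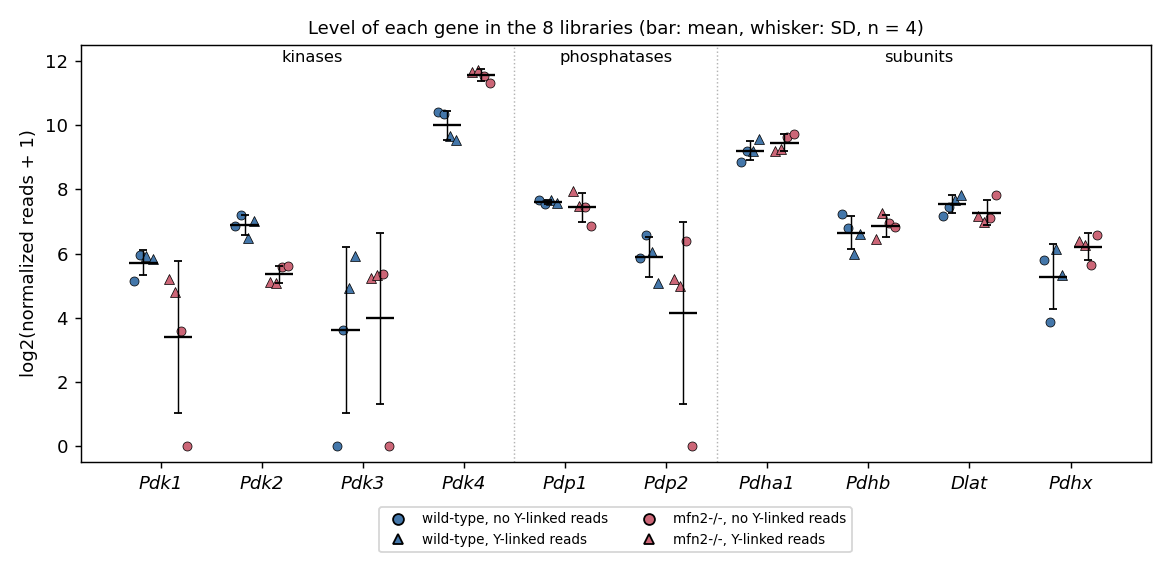
Level of each of the 10 genes as log2(normalized reads + 1) in the 4 wild-type (blue) and 4 mfn2-/- (red) libraries, with circles for libraries without and triangles for libraries with Y-linked reads, and the mean ± SD of each group. Only Pdk4 and Pdk2 have groups that do not overlap, and mfn2-/- replicate 4 lies at 0 for Pdk1, Pdk3 and Pdp2.

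The wild-type Pdk4 values fell into a higher and a lower pair that matched the kind of library. The same pairs differed in cell markers, with 0.341 and 0.336% against 0.234 and 0.233% for muscle stem cells, 5.32 and 5.11% against 6.89 and 6.65% for fibroadipogenic cells, and 1.03 and 1.09% against 1.74 and 1.70% for tendon cells, and the part of these in the Pdk4 values was not tested. In libraries without Y-linked reads the log2 change was 1.04, between 1302 and 1358 normalized reads at one end and 2527 and 2962 at the other. In libraries with Y-linked reads it was 2.09, between 745 and 799 and 3192 and 3368. Pdk4 was thus higher in mfn2-/- cells within both kinds of library, with no overlap in either, which follows from the lack of overlap between the whole groups. The difference between these changes was 1.05 on the log2 scale (SE 0.21, adjusted p = 0.041 in limma for the interaction of genotype and kind of library, which 1.47% of all genes passed). It was no longer past the threshold in 15 of 19 alternative settings, with adjusted p from 0.052 to 0.482 in those. It rests on 2 libraries per genotype and kind.

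**Figure D2:**
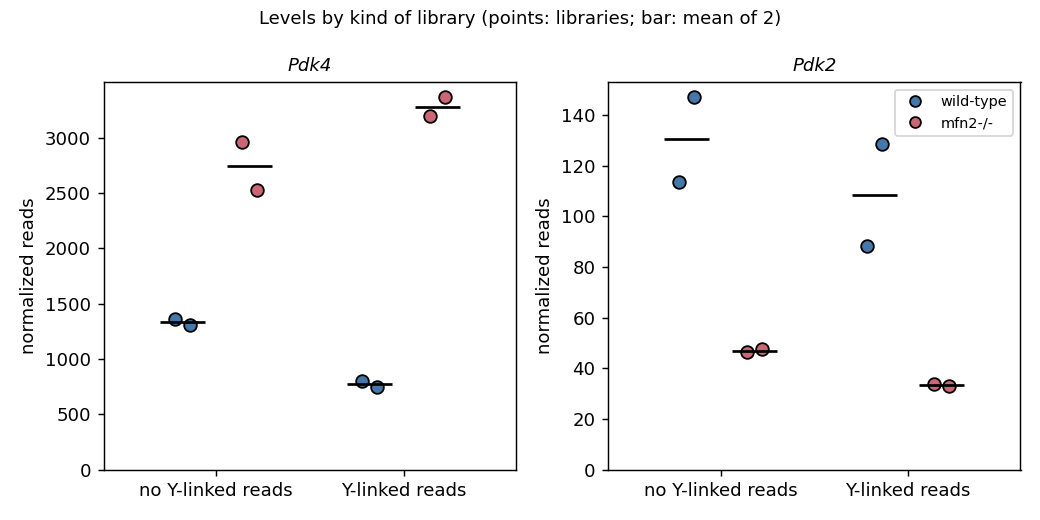
Normalized reads of Pdk4 (left) and Pdk2 (right) in wild-type (blue) and mfn2-/- (red) libraries without or with Y-linked reads. Each point is 1 library and each bar the mean of 2, and within both kinds of library the mfn2-/- points lie above the wild-type points for Pdk4 and below them for Pdk2.

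Pdk2, a kinase made in most tissues, was at 114, 147, 88.2 and 129 normalized reads in the wild-type replicates and at 34.0, 33.2, 46.4 and 47.6 in the mfn2-/- replicates. The lowest wild-type library was above the highest mfn2-/- library, with means of 119 ± 25.0 and 40.3 ± 7.78 (SD, n = 4 each). The log2 change was −1.54 (SE 0.49, 95% interval −2.60 to −0.48), yet its adjusted p of 0.066 in limma missed the threshold. Groups without overlap were found for 2 of the 10 members, Pdk4 and Pdk2, and for 19.5% of all genes tested. Pdk2 passed in 7 of 24 alternative settings, among them the 1 without mfn2-/- replicate 4 (log2 change −1.62, adjusted p = 0.0286), and its log2 change stayed between −1.68 and −1.23 in all of them. The change was −1.44 in libraries without and −1.64 in libraries with Y-linked reads.

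Pdk1, the kinase known as a target of hypoxia-inducible factor, was at 34.1, 61.2, 59.6 and 56.1 normalized reads in wild-type cells and at 36.0, 26.9, 11.1 and 0 in mfn2-/- cells. The groups overlapped narrowly, since mfn2-/- replicate 1 stood above wild-type replicate 1. The log2 change of −2.31 had a 95% interval of −4.80 to 0.17 and did not pass (adjusted p = 0.236). The library at 0, mfn2-/- replicate 4, was the shallowest of its group, and a count of 0 there allows up to 3 reads. Depth is not its only distinction, since it had 9646 genes with a read against 12613 in wild-type replicate 1, which held fewer reads, and it took the lowest weight of the 8 libraries when these were weighted by their spread (0.167, the others 0.345 to 3.75). The part of this in the zeros of that library was not tested. Without it the log2 change was −1.18 (adjusted p = 0.294).

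Pdk3, an X-linked kinase, was at 0, 11.4, 29.4 and 59.3 normalized reads in wild-type libraries and at 36.7, 39.5, 39.8 and 0 in mfn2-/- libraries. Its zeros fell in wild-type replicate 1 and mfn2-/- replicate 4, which had the fewest reads in their groups. As said for Pdk1, depth is not the only distinction of mfn2-/- replicate 4, and the part of depth in its zero was not tested. The log2 change was 0.36 with a 95% interval of −3.02 to 3.75 (adjusted p = 0.908), so neither a rise nor a fall was detectable. The sign turned without wild-type replicate 1 (−0.84).

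Kinase levels were set against each other per kilobase of exon, since longer transcripts collect more reads. In wild-type cells Pdk4 made up 90.6, 86.3, 82.9 and 74.9% of the summed kinase level in replicates 1 to 4, and in mfn2-/- cells 96.8, 97.0, 96.4 and 98.0%. Pdk4 was the leading kinase transcript in all 8 libraries, wild-type ones included. Pdk2 held 10.9 ± 2.50% of the sum in wild-type cells and 1.48 ± 0.47% in mfn2-/- cells, Pdk3 3.35 ± 3.68% and 1.22 ± 0.818%, and Pdk1 2.05 ± 0.794% and 0.251 ± 0.215% (SD, n = 4 each). The order of Pdk2, Pdk3 and Pdk1 held on the means in wild-type cells, but Pdk3 and Pdk1 did not differ beyond their spread. In mfn2-/- cells the shares of Pdk2 and Pdk3 did not differ beyond their spread either. Pdk3 stood above Pdk2 in mfn2-/- replicates 1 to 3 (1.53, 1.56 and 1.78% against 1.15, 1.06 and 1.68%). In replicate 4 Pdk3 was at 0 against 2.05% for Pdk2.

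The summed level of the 4 kinases was 354 ± 86.5 normalized reads per kilobase in wild-type cells and 884 ± 110 in mfn2-/- cells, 2.50-fold higher. The other kinases together, without Pdk4, were at 40.3 to 71.1 in wild-type and 15.1 to 31.6 in mfn2-/- libraries. The ratio of Pdk4 to Pdk2 per kilobase was 10.8, 7.97, 8.16 and 5.21 in wild-type libraries and 84.6, 91.4, 57.5 and 47.8 in mfn2-/- libraries. These shares, sums and ratios describe the libraries and carry no test, since they follow from the member values given above.

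**Figure D3:**
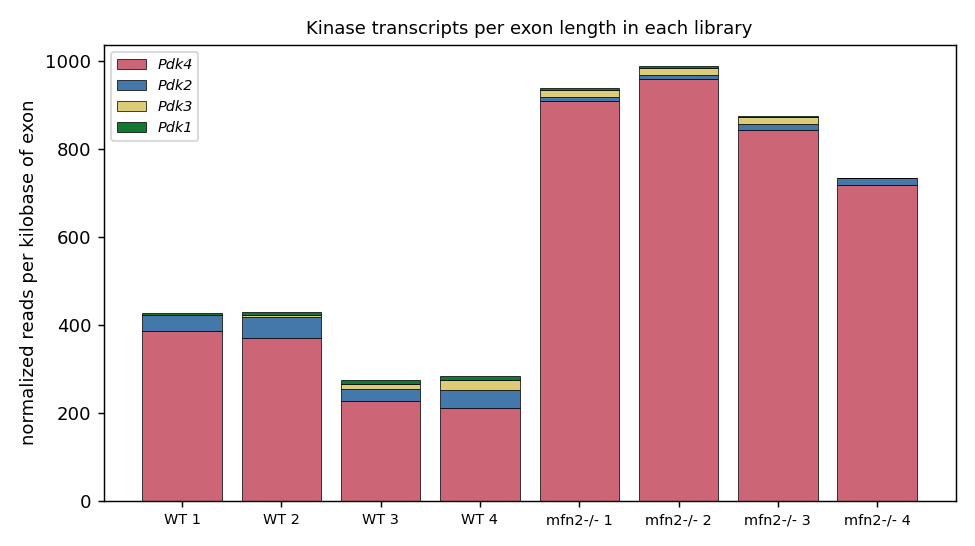
Stacked levels of Pdk4 (red), Pdk2 (blue), Pdk3 (yellow) and Pdk1 (green) in each library, in normalized reads per kilobase of exon. The 4 wild-type bars reach 275 to 430 and the 4 mfn2-/- bars 735 to 989, and Pdk4 fills at least 74.9% of every bar.

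Neither phosphatase passed the threshold in limma, edgeR or DESeq2, and neither had an unadjusted p under 0.05. Pdp1, the calcium-stimulated form that is prominent in muscle, was at 200.1, 187, 203 and 189 normalized reads in wild-type cells, a spread of 4.12% of the mean, and at 245, 177, 174 and 115 in mfn2-/- cells. The mfn2-/- values spread to both sides of the wild-type ones, and the log2 change of −0.18 had a 95% interval of −0.84 to 0.49 (adjusted p = 0.768). Its sign turned without mfn2-/- replicate 4 (0.01). Pdp2, the form known from liver and fat tissue, was at 56.9, 94.4, 64.5 and 33.1 in wild-type cells and at 36.0, 30.8, 83.3 and 0 in mfn2-/- cells. Its log2 change of −1.74 (adjusted p = 0.41) came down to −0.36 without mfn2-/- replicate 4, the library at 0. Per kilobase the summed kinases stood at 4.88 to 7.85 times the summed phosphatases in wild-type libraries and at 15.4 to 28.7 times in mfn2-/- libraries. The value of 28.7 was that of mfn2-/- replicate 4, where Pdp2 was at 0, and replicates 1 to 3 were at 15.4, 22.1 and 16.4. The lowest mfn2-/- ratio was above the highest wild-type ratio, and the numerator is mostly Pdk4 in both groups.

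The 4 subunit genes did not pass in limma, edgeR or DESeq2 either, and 0 of them had an unadjusted p under 0.05. Pdha1, the X-linked gene of the alpha subunit that the kinases act on, was at 459, 588, 589.6 and 750.0 normalized reads in wild-type cells and at 583, 604, 791 and 836 in mfn2-/- cells. The groups overlapped over most of their range, and the log2 change was 0.24 with a 95% interval of −0.23 to 0.71 (adjusted p = 0.533), which leaves out a rise of the size seen for Pdk4. Its change was 0.64 in libraries without and −0.16 in libraries with Y-linked reads, a difference that did not pass (adjusted p = 0.33). Of the Pdha1 exon bases 16.15% overlap Map3k15 on the opposite strand, and whether strand was used in counting is not given in the sources used here, so reads of the pair cannot be told apart with certainty. Library weights turned its sign (−0.05).

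Pdhb, which encodes the beta subunit of the same enzyme, was at 148, 109, 62.1 and 96.7 normalized reads in the wild-type libraries and at 86.0, 153, 122 and 112 in the mfn2-/- ones. Dlat, the acetyltransferase that forms the core of the complex, was at 143, 174, 203 and 227 in wild-type and 142, 126, 137 and 227 in mfn2-/- libraries. Pdhx, which holds dihydrolipoamide dehydrogenase to that core, was at 54.6, 13.5, 69.4 and 39.5 in wild-type and 82.0, 76.6, 48.6 and 95.3 in mfn2-/- libraries. All of these groups overlapped, those of Dlat only through mfn2-/- replicate 4. Its other mfn2-/- libraries (126 to 142) lay below every wild-type library (143 to 227). The log2 changes were 0.22 for Pdhb (95% interval −0.67 to 1.12, adjusted p = 0.787), −0.26 for Dlat (−0.95 to 0.43, adjusted p = 0.662) and 0.94 for Pdhx (−0.49 to 2.36, adjusted p = 0.415). Without wild-type replicate 3 the log2 change of Pdhb was −0.002, without wild-type replicate 2 that of Pdhx was 0.46, and that of Dlat was −0.45 without mfn2-/- replicate 4 and −0.16 without wild-type replicate 4 or mfn2-/- replicate 2. With library weights the log2 change of Dlat was −0.63 (adjusted p = 0.0571 in limma), its furthest from 0 in any setting. For Pdhx the interval reaches past the change seen for Pdk4, so a rise of that size cannot be told from none in its counts, which were as low as 13 reads in 1 library.

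Per kilobase Pdha1 was the highest of the 4 subunit genes in both groups, at 160 ± 31.9 and 188 ± 34.4 normalized reads. Dlat followed at 38.2 ± 7.40 and 32.3 ± 9.55, Pdhb at 26.9 ± 9.16 and 30.6 ± 7.20 and Pdhx at 11.3 ± 6.07 and 19.2 ± 5.00 (SD, n = 4 each, wild-type before mfn2-/-). Dlat and Pdhb did not differ beyond their spread in either group. Pdk4 stood at 299 ± 92.3 in wild-type and 858 ± 104 in mfn2-/- cells on the same scale, above each subunit gene.

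Of the 10 members 1 passed as higher and none as lower in limma and edgeR, and 2 had an unadjusted p under 0.05, Pdk4 and Pdk2. Over all 11754 genes tested, 3.99% passed as higher and 6.36% as lower in limma. At an unadjusted p under 0.05 in limma, 10.4% were higher and 14.4% lower. DESeq2 called both Pdk4 and Pdk2, among 1738 genes called, and edgeR called 1158 genes. The log2 changes were positive for 5 members and negative for 5, with a median of 0.02 against −0.16 over all genes tested. Relative to the median of all genes the Pdk4 change was 1.72, and it was 1.36 after quantile normalization, which moved that median by 0.29. Dihydrolipoamide dehydrogenase, encoded by Dld and shared with other complexes, was at 171 and 204 normalized reads on average (log2 change 0.25, adjusted p = 0.638). Pdpr, the regulatory subunit of the Pdp1 phosphatase, was at 103 and 76.0 (log2 change −0.43, adjusted p = 0.587). Pdha2, the testis form of the alpha subunit, had at most 2 reads in a library and was not tested.

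**Figure D4:**
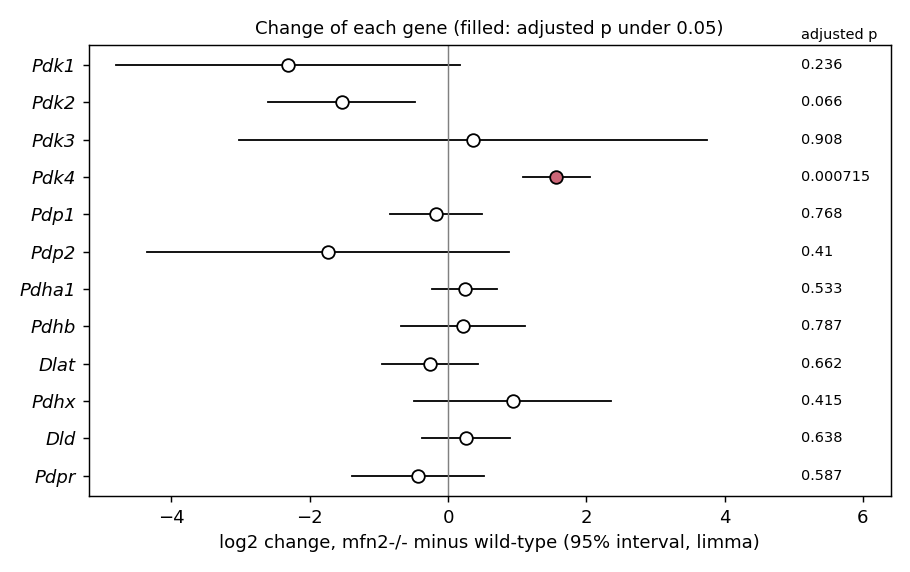
Log2 change of the 10 genes and of Dld and Pdpr, mfn2-/- minus wild-type, with 95% intervals from limma and the adjusted p at the right. Pdk4 alone is filled (log2 change 1.56, adjusted p = 0.000715), the interval of Pdk2 lies below 0 with an adjusted p of 0.066, and those of Pdk1, Pdk3 and Pdp2 are the widest.

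Genes of the surrounding pathways were described from lists of known function. The counts below stand beside 3.99% of all genes higher and 6.36% lower in limma, and beside 10.4% higher and 14.4% lower at an unadjusted p under 0.05. Among genes that carry, make or use pyruvate, 2 of 12 tested were higher and 1 lower. The higher count came down to 1 in 6 of 24 alternative settings, among them those without wild-type replicate 4 and without mfn2-/- replicate 1, 2 or 3, and the lower count to 0 without wild-type replicate 3 or 4. Ldha, the lactate dehydrogenase that turns pyruvate into lactate, had the most reads of the list, not divided by length, and averaged 503 and 974 in the wild-type and mfn2-/- groups, a rise that passed (log2 change 0.98, adjusted p = 0.0129). Slc16a3, the lactate exporter MCT4, rose from 8.47 to 119 (log2 change 4.25, adjusted p = 0.025), and its wild-type level rests on few reads. Gpt2, the mitochondrial enzyme that interconverts pyruvate and alanine, fell from 170 to 35.8 (log2 change −2.13, adjusted p = 0.019). Mpc2, a subunit of the carrier that brings pyruvate into mitochondria, was at 85.4 and 23.1 (log2 change −2.46, 95% interval −4.96 to 0.05, adjusted p = 0.211), and Mpc1, its partner, at 37.5 and 59.8 (log2 change 0.44, adjusted p = 0.774). Neither carrier gene passed.

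The complex needs lipoate on Dlat and thiamine pyrophosphate on its first enzyme. Of 12 tested genes that make or carry these cofactors, 1 was higher and 1 lower. Slc19a2, a thiamine transporter with the most reads of this list over the 8 libraries together, though not in wild-type cells, rose from a mean of 33.5 to 189 (log2 change 2.62, adjusted p = 0.0197). Oxsm, which takes part in the mitochondrial fatty acid synthesis that supplies lipoate, fell from 52.0 to 2.73 (log2 change −3.88, adjusted p = 0.0467), at few reads in mfn2-/- cells, and 15 of 24 alternative settings, edgeR among them, did not call it. Slc19a2 was not called without wild-type replicate 3 or mfn2-/- replicate 3. Iscu, a scaffold for iron-sulfur clusters, was at 84.2 and 94.7 (log2 change −0.14, adjusted p = 0.936). Lias, the lipoate synthase, was at 33.8 and 13.8 (log2 change −2.14, adjusted p = 0.303).

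The sister complexes, which oxidize 2-oxoglutarate and branched-chain keto acids by the same chemistry, had 0 of 8 tested genes past the threshold in limma, edgeR and DESeq2, and 0 at an unadjusted p under 0.05. Ogdh, with the most reads of them, was at 873 and 692 normalized reads (log2 change −0.33, adjusted p = 0.343). The kinase of the branched-chain complex, Bckdk, was at 73.1 and 38.4 (log2 change −1.55, adjusted p = 0.352), and its phosphatase Ppm1k at 85.0 and 105 (log2 change 0.83, adjusted p = 0.564). The median of this list was −0.09, close to that of all genes.

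Known regulators of the Pdk genes were measured as transcripts only. Of 19 tested, 2 were higher and none lower in limma, with 3 higher and 0 lower at an unadjusted p under 0.05. DESeq2 added Pparg as higher. Hif1a, which encodes the hypoxia-inducible factor and had the most reads of this list over the 8 libraries together, though not in wild-type cells, averaged 812 and 2887 in the wild-type and mfn2-/- groups, a rise (log2 change 1.85, adjusted p = 7.97e-05), and its partner Arnt rose from 773 to 1463 (log2 change 0.92, adjusted p = 0.00957). Pdk1, named above as a target of this pair, did not pass and stood lower on average (log2 change −2.31), with no read in 1 mfn2-/- library. Whether the activity of the factor changed was not tested here, and 1 target at few reads cannot show it. No list of its targets was among those described. The paper's own gene set enrichment placed targets of the factor among the genes raised in mfn2-/- ASCs. In mfn2-/- myofibers at a later stage of regeneration it also reported more of the factor's protein and more phosphorylated pyruvate dehydrogenase. Those are protein measurements in other cells than the ones sequenced here. Foxo1, known to induce Pdk4 in fasting muscle, was at 820 and 714 (log2 change −0.22, adjusted p = 0.621), and the glucocorticoid receptor Nr3c1 at 760.1 and 690.4 (log2 change −0.12, adjusted p = 0.778). Ppard was at 255 and 337 (log2 change 0.49, adjusted p = 0.429), and Ncor1, a corepressor, at 1446 and 1842 (log2 change 0.35, adjusted p = 0.23).

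Other targets of the factors that control Pdk4 were set beside it. Among targets of peroxisome proliferator-activated receptors, Cpt1a, which admits fatty acids to mitochondria and had the most reads of their list over the 8 libraries together, was at 993 and 750 (log2 change −0.41, adjusted p = 0.206), and Angptl4 at 394 and 558 (log2 change 0.54, adjusted p = 0.199). Of 15 forkhead factor targets 4 were higher and none lower in limma, with 8 higher and 1 lower at an unadjusted p under 0.05 and a list median of 0.69, and DESeq2 added Cited2 as higher. The count of 4 was smaller in 13 of 24 alternative settings. It was 1 without the intensity trend, 2 with no filter, and 2 when any single library other than wild-type replicate 1 or mfn2-/- replicate 4 was left out. These were Sod2, the mitochondrial superoxide dismutase (383 to 963, log2 change 1.47, adjusted p = 0.00744), Gadd45a, a stress and growth arrest gene (261 to 688, log2 change 1.40, adjusted p = 0.0151), Map1lc3b, an autophagosome protein (292 to 626, log2 change 1.11, adjusted p = 0.0325), and Trim63, a muscle ubiquitin ligase (adjusted p = 0.0339). Trim63 had no read in any of the 4 wild-type libraries. In mfn2-/- cells it averaged 44.3 ± 65.9 normalized reads (SD, n = 4), with a range of 7.33 to 143. By the means it was at least 12.7-fold higher when 3 reads are allowed in each wild-type library. That fold rests mostly on the highest mfn2-/- library and is no lower limit for the others. Txnip, which had the most reads of that list, was at 3597 and 3185 (log2 change −0.22, adjusted p = 0.614).

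Of 10 tested glucocorticoid targets 1 was higher and 1 lower. Errfi1, an inhibitor of growth factor receptor signaling with the most reads of the list, averaged 3529 and 10320.0 and rose (log2 change 1.62, adjusted p = 0.00304), and Tsc22d3, a glucocorticoid-induced regulator, fell from 2066 to 920 (log2 change −1.29, adjusted p = 0.037), a call that was lost in 10 of 24 alternative settings, edgeR among them. Fkbp5 was at 920 and 1250 (log2 change 0.44, adjusted p = 0.185).

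**Figure D5:**
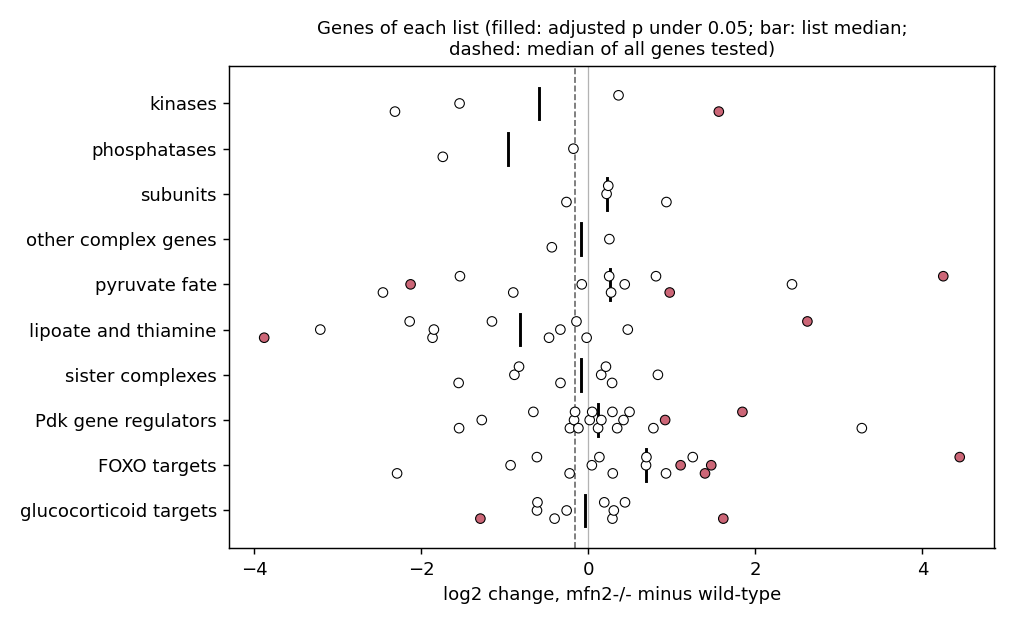
Log2 change, mfn2-/- minus wild-type, of the tested genes of 10 lists, filled where the adjusted p in limma was under 0.05, with the median of each list (bar) and of all genes tested (dashed line, −0.16). Pdk4 is the filled point among the kinases, and 4 of 15 forkhead targets are filled on the right side.

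The genes whose profile over the 8 libraries was most like that of Pdk4 were found by the root-mean-square difference of log2 values centred on each gene's own mean, among the 5584 tested genes that averaged 100 normalized reads or more. Stat3, a transcription factor of cytokine signaling, came first with 0.0939, followed by Pnrc1, Nfe2l2, Nop58 and Nfil3 with 0.13 to 0.163. Stat3 averaged 1756 ± 658 and 4887 ± 286 normalized reads in the wild-type and mfn2-/- groups, and Nfe2l2, the oxidative stress factor NRF2, at 331 ± 86.0 and 878 ± 85.2 (SD, n = 4 each). For Pdha1 the nearest were Kif21a, Otud4, Sh3glb1, Atp5b and Ccni, with 0.101 to 0.153, and their log2 changes were 0.15 to 0.42, none past the threshold. Atp5b encodes the beta subunit of mitochondrial ATP synthase. All of these profiles share the same 8 libraries and their scaling.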

How the data were processed

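Total RNA of the sorted ASCs was made into stranded low-input libraries by the authors. Per the labels, submitters' processing notes name Trim Galore, HISAT2, featureCounts, DESeq2 and the build mm9, without versions. The deposited signal values are gene read counts that the authors divided by a size factor per library. Whole reads were recovered for 100% of values (tolerance 0.01), and no value column was left without a sample. Library kind was read from Y-linked genes.

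Genes with a mean of at least 10 normalized reads (11754) were tested on log2(value + 1) with limma 3.58.1 in R 4.3.3 (intensity trend, two-sided), with Benjamini-Hochberg adjustment over all genes and a threshold of 0.05. edgeR 4.0.16 and DESeq2 1.42.0 were run on recovered reads as alternatives. Exon lengths came from GENCODE on GRCm38 and promoters from RefSeq on GRCm38.p6, and no coordinates of the authors' build were used. The members and lists were chosen with earlier results of these data known. Named were all members, Mfn2 and Dld, and from each list the genes past the threshold, the most abundant gene, and, for Pdk4 and Pdha1, the 5 most similar profiles. The result of 1 gene of the lists, with the count that rests on it, is not reported here. Further genes of the lists were named for their function after their values were seen. Hsd17b8 and Adipoq, which are on the lists, were not analysed here. On simulated data with a log2 change of 2 in 188 of 11217 genes, 38.8% were recovered by limma, 38.8% by edgeR and 54.8% by DESeq2, with 2.67%, 3.95% and 29% false calls. Nothing states that libraries came from separate animals, so p-values measure the spread between these samples. The limit of 3 reads behind a count of 0 covers counting error only, and the 95% intervals are those of limma over the libraries.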

Additional observations from a re-analysis of the deposited data

Results flagged for a closer look

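Dlat was at 227.2 normalized reads in mfn2-/- replicate 4 and at 126 to 142 in the other mfn2-/- libraries, and Pdk3 was at 0 in that library and at 36.7 to 39.8 in the others. In both cases the gap to the nearest library was large against the range of the group (0.839 of the range for Dlat and 0.922 for Pdk3, past Dixon's 95% critical value for 4 samples). Among 42 groups examined 2 were picked out in this way, and chance alone picks out about 2.1. The rise of Pdk4 differed between libraries with and without Y-linked reads by 1.046 on the log2 scale (adjusted p = 0.041 in limma), a difference past the threshold in 4 of 19 alternative settings.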

How the results depend on the processing

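Pdk4 passed in all 24 settings, with adjusted p from 2.64e-08 to 0.0295. Pdk2 was lower in all 24 and passed in 7: with a mean of at least 50 (−1.54), library weights (−1.65), no intensity trend (−1.54), DESeq2 (−1.58), without the 2 shallowest libraries (−1.64), with kind of library as a term and no mfn2-/- replicate 4 (−1.57), and without mfn2-/- replicate 4. In each of these 2 members were called instead of 1. The settings without the shallowest libraries and with the kind term but no mfn2-/- replicate 4 were chosen after seeing the data. Leaving out 1 library at a time gave log2 changes of −1.68 to −1.43 for Pdk2, −0.84 to 1.69 for Pdk3, −0.35 to 0.01 for Pdp1 and −0.002 to 0.41 for Pdhb, and 1 to 2 members called. The sign of Pdk3 also turned without mfn2-/- replicates 1, 2 and 3, and that of Pdp1 without the 2 shallowest libraries (0.03), and that of Pdha1 with library weights (−0.05). The cause was not tested.

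The 1217 genes called (469 higher, 748 lower) became 3037 with library weights (1398 higher, 1639 lower) and 633 without the trend (113 higher), and 671 to 1331 with 1 library left out (235 to 489 higher, 436 to 842 lower), of which the sets without wild-type replicate 3 (671) and 4 (749) were the smallest. DESeq2 called 1738 and edgeR 1158. The Pdk4 difference by kind of library lost its call with a pseudocount of 0.1 (1.05), no filter (1.05), equal totals (0.91), upper quartile scaling (1.03), quantile normalization (0.83), equal totals without fibroadipogenic and tenocyte markers (0.88), no trend (1.05) and edgeR (1.10), and was 0.93 to 1.16 with 1 library left out. With lengths of the longest transcript, shares of the kinase sum were 2.86% for Pdk1 and 14.4% for Pdk2 in wild-type, and 2.05% for Pdk2 and 96.1% for Pdk4 in mfn2-/- cells, and without division by length Pdk1 took 4.52 and 0.557%. Same-numbered libraries correlated at −0.111 to 0.0383 in their deviations from the group means, and differently numbered ones at −0.058 to 0.119. These values cannot show whether the numbers pair samples, since same-numbered libraries differed in the presence of Y-linked reads. With a replicate block 1043 genes and 1 member (Pdk4) were called. The interaction could not be fitted with the block. With a mean of at least 50, Pdk1, Pdk3 and Pdp2 were not tested. Each of these 3 genes had at least 1 library without a read.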
